A study of Mus musculus with 9 samples.

Results

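The genes described here are 7 receptors through which nerves and neurotrophins act on cells, Ntrk2, Ntrk3, Ngfr, Adrb1, Chrm1, Chrm3 and Gria3, and 1 neurotrophin, Bdnf. They were chosen by name from results of mSGc against IMOK, and they are 8 of the 23366 gene entries measured. Because that contrast was used in the choice, the levels of the 8 genes in mSGc and IMOK are a description and carry no test. All 8 were found in the count tables.

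The study derived mSGc, a spontaneously immortalized epithelial cell line, from submandibular salivary glands of adult male C57BL/6 mice. RNA-seq was carried out on mSGc at passages P2, P4, P10 and P25 in what the labels call progenitor media, taken here to be the serum-free medium (SFM) of the methods, and at P10 and P25 in differentiating media, taken to be the serum-containing medium (SCM). Both media contain EGF, at a higher concentration in SCM, and a glucocorticoid. Serum, retinoic acid and thyroid hormone are listed for SCM alone, and fibroblast growth factor and N2 supplement for SFM alone. The comparison line was IMOK, immortalized mouse oral keratinocytes of the same strain, grown in their own medium and labelled early passage. The extraction notes of the IMOK samples also speak of submandibular cells, and these libraries were taken as IMOK by their titles and source labels. Mixing between libraries was not tested.

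There were 4 mSGc libraries in SFM, 2 in SCM and 3 of IMOK, each mSGc condition being 1 library. Total gene counts ranged from 6237884 in P25 SCM to 18444963 in IMOK replicate 1. Cell line, medium and experiment change together between mSGc and IMOK and cannot be told apart. Passage differs as well in the main fit, which takes mSGc of every passage. The paper compared only P10 mSGc with IMOK, stating that its IMOK cells were of that passage. Here that choice is one of the alternatives. Nothing in the labels says that the IMOK libraries came from separate cultures, so p-values measure the spread between these libraries, which may be technical.

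Salivary glands secrete under the control of autonomic nerves. Acetylcholine from parasympathetic endings acts on muscarinic receptors, which couple to Gq and release calcium to drive fluid secretion, and noradrenaline from sympathetic endings acts on adrenergic receptors, of which the beta receptors raise cAMP and drive protein secretion. Neurotrophins are secreted proteins that keep neurons alive and guide their endings. They bind Trk receptor tyrosine kinases and the p75 receptor encoded by Ngfr, and the salivary gland is among the tissues whose nerve supply depends on such factors.

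Several libraries stood apart from their labels. IMOK replicates 2 and 3 held transcripts of salivary acinar secretions. Bpifa2, a secreted salivary protein gene, was at 158 and 175 TPM, a level corrected for gene length and library depth, in IMOK replicates 2 and 3 and at 0 in IMOK replicate 1. Among mSGc libraries it was at 15.8 TPM in P4 SFM and at 0 in each of the other 5. The differences of the 8 genes between the lines are also given without these 3 libraries, a choice made after seeing the data. An edgeR fit without them is among the 14 alternatives for other named genes. It keeps IMOK replicate 1 as the only IMOK library. Its p-values therefore hold no spread between IMOK libraries and say little about stability. P10 SCM was kept in this alternative, though some salivary transcripts were as high there as in P4 SFM. Klk1 was at 23.3 TPM in P10 SCM and 18.1 TPM in P4 SFM, and Amy1 at 3.38 and 3.06 TPM. Smr3a and Prol1 were at 0 TPM in P10 SCM and at 3.86 and 60.0 TPM in P4 SFM. IMOK replicate 1 differed in another way, with the smooth muscle actin gene Acta2 at 880 TPM against 7.08 and 13.8 TPM in replicates 2 and 3. The counts of replicates 2 and 3 differed by a chi-square per degree of freedom of 21.3, and those of replicate 1 differed from them by 150 and 180.

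Markers of other cells were examined, since neurons and glia also carry several of these receptors. All 7 epithelial markers reached 1 TPM in every mSGc and IMOK library, and the keratin gene Krt5 was the most abundant over the 9 libraries. Of 12 neuron markers, 2 reached 1 TPM in any library, and the summed level of the list was 23.3, 42.9, 1.92, 3.79, 9.38 and 4.31 TPM in P2 SFM, P4 SFM, P10 SFM, P10 SCM, P25 SFM and P25 SCM and 2.76, 6.80 and 10.6 TPM in IMOK. The most abundant was Tubb3, a tubulin, at 22.3 and 42.6 TPM in P2 and P4 SFM, and the other was Stmn2, at 2.98 and 2.82 TPM in IMOK replicates 2 and 3. The defining neuron markers Elavl3, Elavl4, Snap25, Syt1 and Rbfox3 had at most 3 counts in each library.

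Of 6 Schwann cell and neural crest markers, 3 reached 1 TPM in any library, and the sum was 15.6, 17.1, 22.2, 20.8, 10.1 and 10.5 TPM in the mSGc libraries in the order above and 17.3, 16.1 and 15.0 TPM in IMOK. The most abundant was Mbp, while Sox10 had 3 counts in P4 SFM and 0 elsewhere and Foxd3 had 0 counts in all 9 libraries. Fibroblast markers summed to 18.6 TPM in P2 SFM and to at most 4.36 TPM in the other mSGc libraries, with Col1a1 the most abundant gene over the 9 libraries and Col1a2, at 9.88 TPM, in P2 SFM. In IMOK they summed to 6.41, 1.23 and 1.35 TPM. Myoepithelial markers, led by Acta2, summed to 769 and 125 TPM in P2 and P4 SFM, to between 7.97 and 76.8 TPM in the later mSGc libraries, and to 961, 10.2 and 15.4 TPM in IMOK. In bulk RNA, fewer cells of a kind and less RNA per cell cannot be told apart, and the part of these cells in the levels below was not tested.

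The other lists were acinar, duct, endothelial and leukocyte markers. Acinar markers summed to between 27.2 and 135 TPM in mSGc, highest in P4 SFM, and to 256, 459 and 437 TPM in IMOK, with the water channel gene Aqp5 the most abundant over the 9 libraries. Duct markers, of which Krt7 was the most abundant over the 9 libraries, summed to 2190, 1630, 391 and 98.6 TPM in P2, P4, P10 and P25 SFM, to 3540 and 2580 TPM in P10 and P25 SCM, and to 786, 768 and 794 TPM in IMOK. Neither of the 2 endothelial markers reached 1 TPM in any library, and of the 2 leukocyte markers Cd68 did, with a summed level of at most 4.10 TPM in mSGc and of 33.4, 8.81 and 4.62 TPM in IMOK.

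Bdnf encodes brain-derived neurotrophic factor, the ligand of the receptor made from Ntrk2. It was near the limit of detection, with 18, 2, 0 and 1 counts in P2, P4, P10 and P25 SFM, 7 and 0 counts in P10 and P25 SCM, and 7, 10 and 10 counts in IMOK. A count of 18 in P2 SFM corresponds to 0.620 TPM (95% counting interval 0.367 to 0.980), and no library reached 1 TPM. On the log2(TPM + 0.5) scale mSGc differed from IMOK by -0.17, by -0.69 with a pseudocount of 0.1, and by -0.035 without P4 SFM and IMOK replicates 2 and 3. The intervals given for counts are exact Poisson or binomial intervals and cover counting error only.

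The neurotrophin genes Ntf3 and Ntf5 differed from Bdnf in level. Ntf3, which encodes neurotrophin-3, the main ligand of the receptor made from Ntrk3, was at 7.05, 6.37 and 6.61 TPM in the IMOK libraries and had 1 count in P4 SFM and 0 in the other mSGc libraries. The lines did not overlap, the pooled count rate was higher in IMOK by a ratio of 349 (95% interval 62.2 to 13850), and the difference passed the edgeR test (adjusted p = 0.000163). Over 14 alternatives its adjusted p ranged from 2.3e-12 to 0.12, the highest without P4 SFM and IMOK replicates 2 and 3. Ntf5, which encodes neurotrophin-4, another Ntrk2 ligand, was between 4.38 and 12.2 TPM in mSGc and between 10.4 and 18.7 TPM in IMOK. The lines overlapped, and Ntf5 was not called between them by edgeR (adjusted p = 0.571) or DESeq2.

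Ntrk2 encodes TrkB, the receptor tyrosine kinase for brain-derived neurotrophic factor. Its level was 3.43, 4.81, 97.3 and 34.1 TPM in P2, P4, P10 and P25 SFM. In SCM it was 26.95 TPM at P10 and 33.4 TPM at P25, and in IMOK it was 3.57, 0.341 and 0.164 TPM. P10 SFM was the highest library and both earliest passages the lowest of mSGc, with P2 SFM at the level of IMOK replicate 1.

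The mean Ntrk2 level was 33.3 TPM ± 34.2 (SD, n = 6) in mSGc and 1.36 TPM ± 1.915 (SD, n = 3) in IMOK. On the log2(TPM + 0.5) scale mSGc exceeded IMOK by 3.93, and by 4.75 without IMOK replicate 1, which held 300 of the 342 IMOK counts. Without P4 SFM and IMOK replicates 2 and 3 the difference was 2.69. Counts per gene do not separate the full-length receptor from truncated forms that lack the kinase, which the gene also encodes.

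Ntrk3 encodes TrkC, the receptor for neurotrophin-3. It was at 2.19, 2.56, 4.71 and 4.98 TPM in P2, P4, P10 and P25 SFM, at 18.7 and 2.59 TPM in P10 and P25 SCM, and had 1, 0 and 0 counts in IMOK. Every mSGc library lay above every IMOK library, and P10 SCM held 611 of the 1163 mSGc counts. The pooled count ratio of mSGc to IMOK was 865, with a 95% interval of 155 to 34210 that the single IMOK count leaves wide. It was 503 (89.95 to 19910) without P10 SCM, 572 (102.5 to 22620) without IMOK replicate 2, and 352.5 (63.1 to 13930) without P4 SFM and IMOK replicates 2 and 3. On the log2(TPM + 0.5) scale the difference was 3.27, and 3.37 without P4 SFM and IMOK replicates 2 and 3. With IMOK near 0 its size depended on the scale, being 5.37 with a pseudocount of 0.1 and 4.58 by CPM with TMM-scaled library sizes, and it was 4.30 with P10 mSGc libraries only.

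Ngfr encodes the p75 receptor, which binds all neurotrophins and works with or without the Trk receptors. Its level was 0.5, 0.622, 2.30 and 2.25 TPM in P2, P4, P10 and P25 SFM, 11.5 and 18.35 TPM in P10 and P25 SCM, and 1.93, 4.06 and 2.97 TPM in IMOK. Both SCM libraries lay above the rest, P2 and P4 SFM lay below every IMOK library, and the remaining mSGc libraries overlapped IMOK. The mean difference between the lines, 0.07 on the log2 scale, is therefore made of values on both sides. It was -0.17 without IMOK replicate 1 and 0.87 without P4 SFM and IMOK replicates 2 and 3.

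Receptors and co-receptors outside the 8 were examined as a list. For comparison with this and the later lists, 30.4% of all 12885 genes tested between the lines had an unadjusted p under 0.05. By edgeR 14.9% of them were called, and DESeq2 called 17.0% of 18030 genes. Sorcs2, a sortilin-family receptor that pairs with p75, was between 1.82 and 3.33 TPM in mSGc with a median of 2.88, and at 31.3, 13.4 and 12.2 TPM in IMOK. The lines did not overlap, and the log2 fold change was -2.53 (SE 0.29, edgeR adjusted p = 0.000734, range over 14 alternatives 3.56e-12 to 0.0405). Of the 11 genes of this list 7 were tested, Sorcs2 was lower in mSGc and 6 were not called by edgeR, while 2 had an unadjusted p under 0.05 and DESeq2 called 2. The other was Sort1, named after its values were seen, with a log2 fold change of -1.76 (SE 0.53, edgeR adjusted p = 0.0511). Sort1 passed the threshold without P10 SCM (adjusted p = 0.00637, range over 14 alternatives 0.00637 to 0.414).

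Of 9 adaptors that pass on Trk signals, all were tested, 2 were lower in mSGc and 0 higher by edgeR, and the same number, 2, had an unadjusted p under 0.05 or a DESeq2 call. Plcg1, the phospholipase that Trk receptors bind directly, was between 30.7 and 50.8 TPM in mSGc with a median of 34.8 and at 105, 69.0 and 53.9 TPM in IMOK. Its log2 fold change was -0.77 (SE 0.22, edgeR adjusted p = 0.0421). Gab1, a docking protein, was between 9.39 and 29.8 TPM in mSGc with a median of 18.0 and at 63.6, 38.7 and 35.4 TPM in IMOK. Its log2 fold change was -1.15 (SE 0.27, edgeR adjusted p = 0.0192). Neither gene overlapped between the lines. Both calls were lost without IMOK replicate 1 (adjusted p = 0.137 for Plcg1 and 0.0636 for Gab1) and without replicate 2 (0.112 and 0.0532). The call of Plcg1 was also lost without P2 SFM, P4 SFM, P10 SCM or P25 SCM (0.071, 0.0799, 0.0735 and 0.0729). Over 14 alternatives the adjusted p ranged from 0.0153 to 0.286 for Plcg1 and from 0.00307 to 0.19 for Gab1. Of the 4 tested genes of the GDNF family, another group of neuronal growth factors and receptors, 0 were called by edgeR or DESeq2 and 0 had an unadjusted p under 0.05.

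Adrb1 encodes the beta-1 adrenergic receptor, the main beta receptor of salivary acinar cells. Its level was 1.67, 1.97, 3.84 and 5.48 TPM in P2, P4, P10 and P25 SFM and 8.76 and 8.69 TPM in P10 and P25 SCM. In IMOK it was 8.24, 4.24 and 2.955 TPM, so that both SCM libraries lay above every IMOK library, P2 and P4 SFM below every one, and P10 and P25 SFM within their range. The mean was 5.07 TPM ± 3.15 (SD, n = 6) in mSGc and 5.145 TPM ± 2.76 (SD, n = 3) in IMOK, and the 2 SCM libraries were the highest of mSGc. The log2 difference of -0.13 was 0.24 without IMOK replicate 1 and -0.68 without P4 SFM and IMOK replicates 2 and 3.

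Adra1d, an alpha-1 receptor that couples to Gq, was between 1.26 and 14.8 TPM in mSGc with a median of 5.08 and at 0.196, 0.727 and 0.573 TPM in IMOK, a log2 fold change of 3.71 (SE 0.84, edgeR adjusted p = 0.0166). The lines did not overlap. Adra1d was not called without IMOK replicate 2 or 3 (adjusted p = 0.0587 and 0.0602, range over 14 alternatives 4.98e-06 to 0.154). Adrb3 was at most 0.757 TPM in mSGc and between 1.12 and 1.70 TPM in IMOK, and Adra1a, Adra1b, Adra2a, Adra2b and Adra2c had at most 5 counts in each library.

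Chrm3 encodes the M3 muscarinic receptor, through which acetylcholine drives fluid secretion in salivary acinar cells. It was at 5.905, 2.39, 4.19 and 0.223 TPM in P2, P4, P10 and P25 SFM and at 12.3 and 3.02 TPM in P10 and P25 SCM. IMOK had 1, 1 and 2 counts. P10 SCM was the highest library and P25 SFM, with 6 counts, the lowest of mSGc, and every mSGc library lay above every IMOK library. The pooled count ratio of mSGc to IMOK was 95.05 (95% interval 36.9 to 350). P10 SCM held 247 of the 511 mSGc counts, and the ratio was 60.2 (23.2 to 222.5) without it and 149.6 (26.7 to 5920) without P4 SFM and IMOK replicates 2 and 3. On the log2(TPM + 0.5) scale the difference was 2.77, and 2.88 without P4 SFM and IMOK replicates 2 and 3, but 4.35 with a pseudocount of 0.1.

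Chrm1 encodes the M1 muscarinic receptor, found in salivary glands beside M3. It had 0, 3, 6 and 3 counts in P2, P4, P10 and P25 SFM, 11 and 2 counts in P10 and P25 SCM, and 157, 18 and 8 counts in IMOK. The level of 2.93 TPM in IMOK replicate 1 (95% interval 2.49 to 3.43) was the only one to reach 1 TPM. On the log2(TPM + 0.5) scale mSGc was below IMOK by a difference of -1.02, which became -1.835 with a pseudocount of 0.1, -0.28 without IMOK replicate 1 and -2.47 without P4 SFM and IMOK replicates 2 and 3. The 3 other muscarinic genes had too few counts to be tested. Chrm2 and Chrm5 had 0 counts in all 9 libraries, and Chrm4 had at most 2 in each.

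Gria3 encodes a subunit of the AMPA receptor, a glutamate-gated ion channel best known from synapses. It was at 12.6, 9.12, 15.6 and 7.14 TPM in P2, P4, P10 and P25 SFM, at 13.9 and 7.73 TPM in P10 and P25 SCM, and had 0 counts in each IMOK library. The mSGc libraries differed least for this gene among the 8, with a coefficient of variation of 31.8%. Against a floor of 3 counts in each IMOK library the mean CPM (counts scaled to library depth) of Gria3 was at least 172-fold higher in mSGc. Its log2(TPM + 0.5) difference was 4.47, and 4.51 without P4 SFM and IMOK replicates 2 and 3. With IMOK at 0 its size depended on the scale, being 6.73 with a pseudocount of 0.1 and 5.87 by CPM with TMM-scaled library sizes, and it was 4.93 with P10 mSGc libraries only.

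The other AMPA subunits were not at this level. Gria2 and Gria4 had at most 5 counts in each library, and Gria1 had at most 1 in each mSGc library and 17, 1 and 0 in IMOK. Of 17 other ionotropic glutamate receptor genes 4 were tested, 0 were called by edgeR, 1 had an unadjusted p under 0.05, and DESeq2 called 1, Grin1, named after its values were seen. Among 13 AMPA receptor partners 5 were tested, 1 was lower in mSGc and 0 higher by edgeR, 2 had an unadjusted p under 0.05, and DESeq2 called 2, Cnih2 and, in the other direction, Nsf. Cnih2, an auxiliary protein of the channel, was between 0.383 and 1.80 TPM in mSGc with a median of 1.28 and at 8.63, 3.94 and 2.62 TPM in IMOK. The lines did not overlap, with a log2 fold change of -1.78 (SE 0.535, edgeR adjusted p = 0.0496). Leaving out any of the 9 libraries ended the call, with the lowest adjusted p (0.0559) without P25 SCM and the highest (0.173) without IMOK replicate 1, and over 14 alternatives it ranged from 0.0181 to 0.176. Nsf, named after its values were seen, had a log2 fold change of 0.72 (SE 0.25, edgeR adjusted p = 0.0837), and the lines overlapped. Its adjusted p was 0.0412 by DESeq2 and 0.0219 without P10 SFM, with a range over 14 alternatives of 0.0219 to 0.502.

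**Figure D1:**
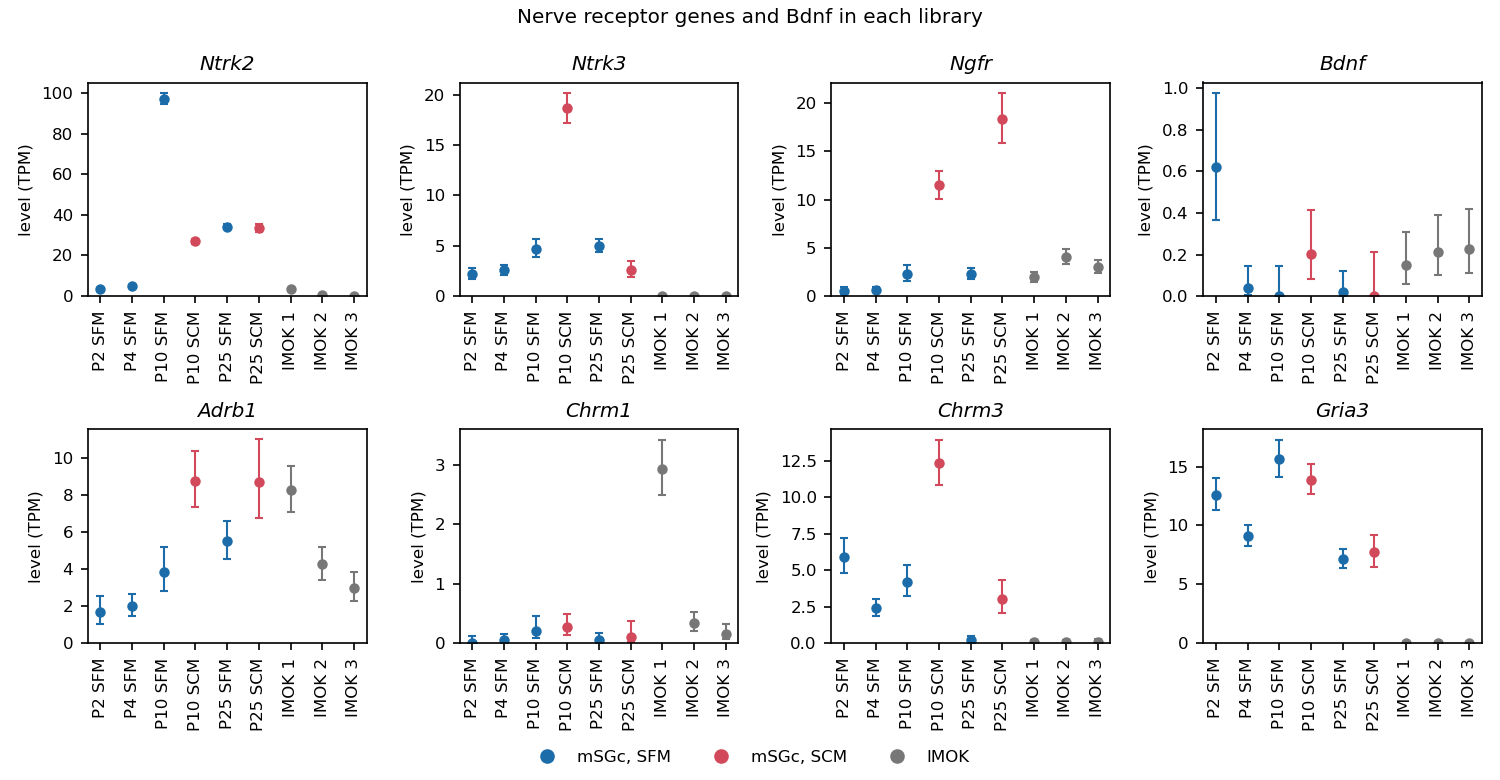
The level of each of the 8 genes in TPM (vertical axis, from 0) in each of the 9 libraries (horizontal axis), with mSGc in SFM in blue, mSGc in SCM in red and IMOK in grey; bars are 95% Poisson intervals of the count. Gria3 lies between 7.14 and 15.6 TPM in mSGc and at 0 in IMOK, while Ngfr is highest in both SCM libraries.

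By CPM, 4 of the 8 genes, Ntrk2, Ntrk3, Chrm3 and Gria3, lay above every IMOK library in every mSGc library, as did 7.15% of the 12885 genes tested. By TPM there were 3, without Ntrk2, against 5.22% of genes. Below every IMOK library in every mSGc library by CPM lay 0 of the 8, where 13.7% of genes tested did, and 1, Chrm1, without IMOK replicate 3. As the 8 genes were selected on this contrast, nothing is read from these counts. Of the 8, 7 passed the filter on low counts in the fit of the lines, and Bdnf did not.

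In mSGc the mean levels ran from Ntrk2 through Gria3 (11.0 TPM ± 3.50), Ntrk3 (5.95 ± 6.35), Ngfr (5.92 ± 7.34), Adrb1 (5.07 ± 3.15) and Chrm3 (4.67 ± 4.20) to Bdnf (0.147 ± 0.244) and Chrm1 (0.116 ± 0.105), each as mean and SD over 6 libraries. Ntrk2 and Gria3 did not differ beyond the spread of Ntrk2, the 4 genes from Ntrk3 to Chrm3 did not differ beyond their spread, nor did Bdnf and Chrm1. The mean level of Ngfr was 1.42 TPM ± 0.991 (SD, n = 4) in SFM and 14.9 TPM ± 4.86 (SD, n = 2) in SCM, where Gria3 (10.8 ± 4.35) and Ntrk3 (10.6 ± 11.4) did not differ from it beyond their spread.

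In IMOK the order was Adrb1 (5.145 TPM ± 2.76), Ngfr (2.99 ± 1.06), Ntrk2 (1.36 ± 1.915), Chrm1 (1.14 ± 1.55), Bdnf (0.196 ± 0.041), Chrm3 (0.0508 ± 0.0242), Ntrk3 (0.00757 ± 0.0131) and Gria3 at 0, each as mean and SD over 3 libraries. Over the 3 libraries neighbours from Adrb1 to Bdnf did not differ beyond their spread, which for Ntrk2 and Chrm1 came from replicate 1. Without that library Ngfr (3.515 TPM ± 0.769, n = 2) and Ntrk2 (0.2525 ± 0.125) differed beyond their spread, and the mean of Chrm1 was 0.245 TPM ± 0.123.

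**Figure D2:**
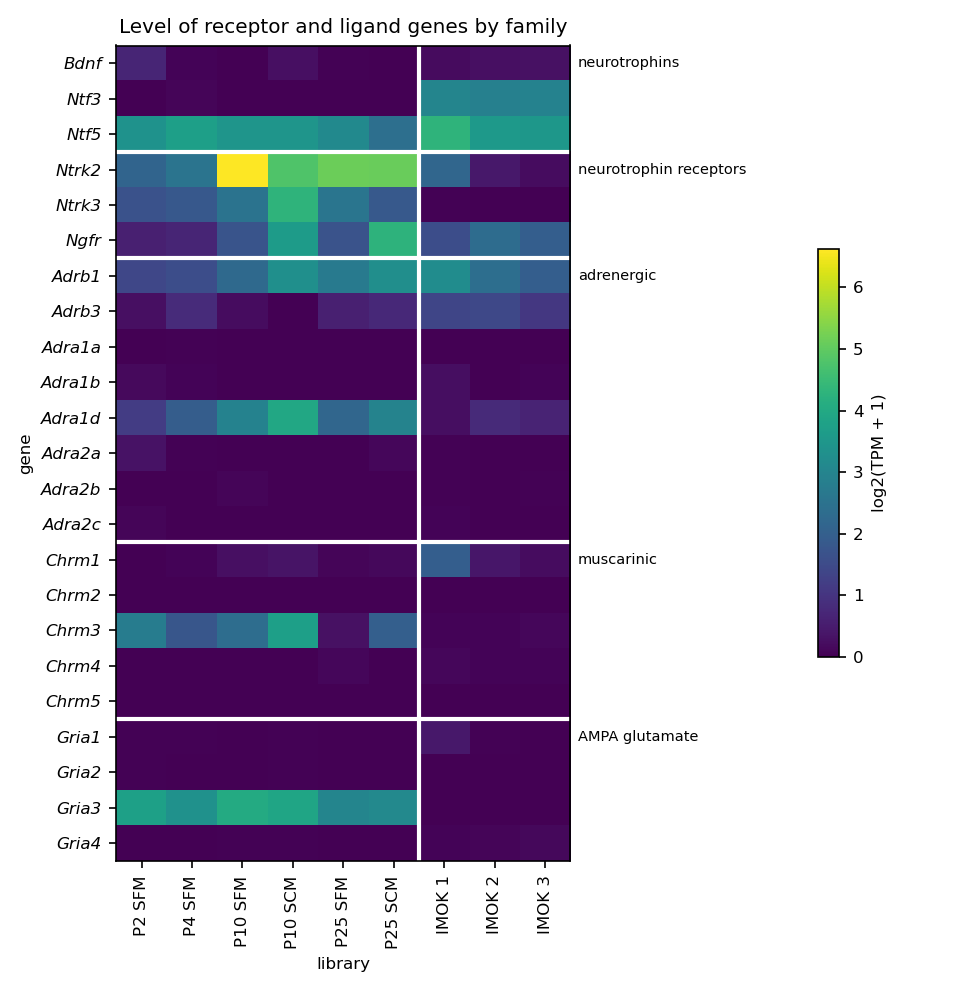
Level as log2(TPM + 1), in colour, of neurotrophin genes and of genes of the neurotrophin, adrenergic, muscarinic and AMPA receptor families (rows) in the 9 libraries (columns), with white lines between families and between mSGc and IMOK. In the AMPA family Gria3 stands alone in mSGc, at 7.14 to 15.6 TPM.

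Around the 8 genes, 170 further genes of nerve input and its signalling were examined, of which 88 passed the filter. In mSGc against IMOK 7 were higher and 10 lower by edgeR, and 71 were not called. For comparison, 6.58% of the 12885 genes were called higher and 8.3% lower. An unadjusted p under 0.05 was found for 33 of the 88 list genes and for 30.4% of all genes tested. The median log2 fold change was -0.14 over the list and 0.00 over all genes tested. The count of 17 moved with the libraries included, as 6 were called without IMOK replicate 2 and 8 without replicate 3. The share of all genes called moved too, from 14.9% to 5.61% and 7.14%. Without P4 SFM and IMOK replicates 2 and 3 the only IMOK library left is replicate 1, so calls in that fit are not counted here. For list genes with a range over 14 alternatives, the upper end comes from that fit, except for Sorcs2, Gnaq, Plcg1, Gab1 and Nsf. Such an upper end holds no spread between IMOK libraries. DESeq2 called 28, of which 17 were higher and 11 lower, so that 60.7% of its calls were higher against 41.2% by edgeR. Of all 18030 genes DESeq2 called 17.0%. The split moved the same way over all genes, with 1553 higher and 1506 lower by DESeq2 against 848 and 1070 by edgeR.

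The Gq and calcium pathway, which muscarinic receptors use, had 2 genes higher and 2 lower by edgeR among 18 tested, where 9 had an unadjusted p under 0.05 and DESeq2 called 6. The other 2 called by DESeq2, named after their values were seen, were Gna14 (log2 fold change 2.65, adjusted p = 0.01) and Orai3 (1.06, 0.0206), both higher in mSGc and overlapping between the lines. Their edgeR adjusted p was 0.0835 and 0.0734, and that of Orai3 was 0.00476 without IMOK replicate 1 (range over 14 alternatives 0.00476 to 0.714). Gnaq, the Gq alpha subunit, was between 25.5 and 45.3 TPM in mSGc with a median of 36.45 and at 178, 72.2 and 68.4 TPM in IMOK (log2 fold change -1.34, SE 0.27, edgeR adjusted p = 0.01). Gna15, an alpha subunit of the same class, was between 23.7 and 56.3 TPM in mSGc with a median of 36.55 and at 16.9, 23.5 and 11.4 TPM in IMOK (log2 fold change 1.35, SE 0.33, edgeR adjusted p = 0.0227). The 2 alpha subunits differed in opposite directions between the lines, with no overlap in either, though the lowest mSGc library for Gna15 lay just above IMOK replicate 2. Over 14 alternatives the adjusted p ranged from 0.000225 to 0.193 for Gnaq, and from 0.000796 to 0.187 for Gna15, which was not called without IMOK replicate 1 or 3 (0.0608 and 0.0952).

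Plcb3, a phospholipase that Gq activates, was between 34.5 and 55.2 TPM in mSGc with a median of 51.2 and at 108, 108 and 80.8 TPM in IMOK (log2 fold change -0.81, SE 0.16, edgeR adjusted p = 0.01). Stim1, the sensor of calcium stores, was between 36.0 and 85.1 TPM in mSGc with a median of 52.5 and at 36.6, 30.7 and 27.1 TPM in IMOK (log2 fold change 1.05, SE 0.25, edgeR adjusted p = 0.0217), so that its lowest mSGc library overlapped IMOK, while for Plcb3 the lines did not overlap. Plcb3 was not called without IMOK replicate 2 (adjusted p = 0.0625, range over 14 alternatives 9.96e-05 to 0.139). Stim1 was not called without IMOK replicate 2 or 3 (adjusted p = 0.0911 and 0.0849, range 0.00155 to 0.291).

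In the Gs and cAMP pathway, used by beta adrenergic receptors, 2 of 16 tested genes were lower in mSGc and 0 higher by edgeR, 6 had an unadjusted p under 0.05, and DESeq2 called 4. The other 2 that it called, named after their values were seen, were higher in mSGc. These were the adenylyl cyclase genes Adcy3 (DESeq2 log2 fold change 1.52, adjusted p = 0.0341) and Adcy8 (7.12, 0.0225), and both overlapped between the lines. Adcy8 had 2 counts in IMOK and 0 in P25 SFM and P25 SCM. By edgeR their adjusted p was 0.118 and 0.067. It was 0.00102 for Adcy3 without IMOK replicate 1, and 0.0365 and 0.0484 for Adcy8 without P25 SFM and without P25 SCM, with ranges over 14 alternatives of 0.00102 to 0.742 and 0.0225 to 0.377. Prkar2b, a regulatory subunit of protein kinase A, was between 5.01 and 15.9 TPM in mSGc with a median of 8.07 and at 32.4, 51.5 and 49.0 TPM in IMOK (log2 fold change -1.94, SE 0.42, edgeR adjusted p = 0.0142). Pde4b, which breaks down cAMP, was between 0.211 and 1.30 TPM in mSGc with a median of 0.450 and at 1.497, 3.46 and 3.06 TPM in IMOK (log2 fold change -2.01, SE 0.53, edgeR adjusted p = 0.0323). For both genes every mSGc library lay below every IMOK library. Prkar2b was not called without IMOK replicate 2 or 3 (adjusted p = 0.0645 and 0.0562, range over 14 alternatives 0.000268 to 0.351). Pde4b was not called without either of these (0.141 and 0.109), nor without P2 SFM, P4 SFM, P10 SCM or P25 SFM (0.0545, 0.0674, 0.0505 and 0.0587), and its range was 0.00303 to 0.614.

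Of 7 tested genes of receptor desensitization, 1 was lower in mSGc and 0 higher by edgeR, 3 had an unadjusted p under 0.05, and DESeq2 called 3. Grk5 (DESeq2 log2 fold change 1.55, adjusted p = 0.0195) and Rgs2 (1.89, 0.0482), named after their values were seen, were called higher in mSGc by DESeq2 and overlapped between the lines. Their edgeR adjusted p was 0.0842 and 0.154, and that of Grk5 was 0.0153 without P25 SFM (range over 14 alternatives 0.0153 to 0.393). Adrbk1, a kinase that switches off beta receptors, was lower in mSGc, between 49.95 and 71.9 TPM with a median of 56.15 against 117, 154 and 152 TPM in IMOK. The lines did not overlap, with a log2 fold change of -1.08 (SE 0.18, edgeR adjusted p = 0.0047, range over 14 alternatives 5.44e-06 to 0.223). The call held without each single library and was lost with P10 mSGc libraries alone (0.0627). It was also lost without P4 SFM and IMOK replicates 2 and 3, where only 1 IMOK library is left.

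Of receptors for other transmitters of salivary nerves, 7 purinergic genes were tested, of which edgeR called 2, both higher in mSGc, 3 had an unadjusted p under 0.05, and DESeq2 called 4. The other 2, named after their values were seen, were P2ry1 (DESeq2 log2 fold change 0.96, adjusted p = 0.0387) and P2rx2 (3.565, 0.0335), which overlapped between the lines and were not called by edgeR (adjusted p = 0.103 and 0.172). P2rx7, an ATP-gated channel, was between 9.15 and 17.7 TPM in mSGc with a median of 12.6 and at 2.57, 1.38 and 0.972 TPM in IMOK, and the lines did not overlap. It was called in each of 14 alternatives (log2 fold change 3.16, SE 0.33, edgeR adjusted p = 0.000382, range 6.89e-22 to 0.0389). P2ry14, a receptor for UDP-sugars, was between 0.841 and 6.15 TPM in mSGc with a median of 4.935 and at 1.63, 0.3225 and 0.208 TPM in IMOK, where the groups overlapped (log2 fold change 2.85, SE 0.85, edgeR adjusted p = 0.0485). It was called in 3 of the 14 alternatives (adjusted p 0.0016 to 0.491), and of single libraries left out it kept its call for P2 SFM (0.0247) and IMOK replicate 1 (0.0206) and lost it for the other 7, with 0.0586 without P10 SCM the lowest and 0.179 without IMOK replicate 2 the highest.

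Vipr1 encodes a receptor for vasoactive intestinal peptide, a parasympathetic co-transmitter. Of 2 tested neuropeptide receptor genes it was the 1 called by edgeR and by DESeq2. Its level was 4.20, 4.02, 3.46 and 1.20 TPM in P2, P4, P10 and P25 SFM, 25.7 and 16.6 TPM in P10 and P25 SCM, and 0.838, 0.0710 and 0 TPM in IMOK. The lines did not overlap (log2 fold change 5.12, SE 1.37, edgeR adjusted p = 0.0328), and both SCM libraries lay above the rest. It was not called without P10 SCM, P25 SCM, IMOK replicate 2 or IMOK replicate 3 (adjusted p = 0.0534, 0.0529, 0.125 and 0.0845, range over 14 alternatives 0.000706 to 0.303). Of 2 tested nicotinic receptor genes 0 were called by edgeR or DESeq2 and 1 had an unadjusted p under 0.05. The 1 tested gene of acetylcholine synthesis and breakdown, Bche, was called by neither and had no unadjusted p under 0.05.

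Whether the medium changes these genes was examined within mSGc, in a joint fit of medium and log2 passage number with 3 residual degrees of freedom. Of the 8 genes 6 were tested, Bdnf and Chrm1 having too few counts. By edgeR none was called, against 0.0241% of 12451 genes called higher and 0.0% called lower in SCM, while 2 of the 6 had an unadjusted p under 0.05 and DESeq2 called 1, Ngfr. Of all genes 8.18% had an unadjusted p under 0.05, and DESeq2 called 1.65% of 17402. None of the 87 tested genes of the nerve-input list was called by edgeR, 12 had an unadjusted p under 0.05, and DESeq2 called 4. These were Vipr1 (log2 change 3.19) and, named after their values were seen, Pde4d (3.14), Rgs2 (-2.72) and Gdnf (-6.72). By edgeR Vipr1 had an adjusted p of 0.0663, and it was called in the fit of P10 and P25 blocked by passage (0.00942). Vipr1 was also called by edgeR without the filter (0.0251) and without P10 SFM (0.0163), and Rgs2 in the blocked fit (0.0385). The median log2 fold change was -0.03 over that list and -0.01 over all genes tested. The summed level of the duct markers differed with the medium, from 391 TPM in SFM to 3540 TPM in SCM at P10 and from 98.6 to 2580 TPM at P25, and their part in these results was not tested.

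For Ngfr the CPM was higher in SCM at both passages, by a ratio of 4.63 at P10 (95% counting interval 3.25 to 6.76) and 7.46 at P25 (5.61 to 10.04). The fitted log2 change was 2.64 (SE 0.42, edgeR adjusted p = 0.117), and it passed the threshold without the P10 SFM library (edgeR adjusted p = 0.038), where 0.466% of 12455 genes were called, and in the fit of P10 and P25 with passage as a block (0.0291), where 1.03% of 11938 were. Over all alternatives its adjusted p ranged from 4.41e-06 to 1.0. Without P4 SFM the adjusted p of Ngfr, 0.255, was the lowest of the 6 genes, with a log2 change of 2.58.

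For Chrm3 the ratio of SCM to SFM was 2.73 at P10 (2.06 to 3.68) and 12.4 at P25 (5.07 to 36.4), the latter from 30 and 6 counts. Its log2 change of 2.35 (SE 0.83, edgeR adjusted p = 0.5) passed the threshold without P10 SFM (edgeR adjusted p = 0.0375, range over all alternatives 0.0375 to 1.0). Adrb1 was higher in SCM by a ratio of 2.115 at P10 (1.496 to 3.04) and 1.45 at P25 (1.06 to 1.97), and was not called (log2 change 0.87, SE 0.40, edgeR adjusted p = 0.671).

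For Ntrk2 the ratio of SCM to SFM was 0.257 at P10 (0.243 to 0.272) and 0.895 at P25 (0.833 to 0.962), lower in SCM at both passages. For Ntrk3 it was 3.68 at P10 (3.003 to 4.54) and 0.475 at P25 (0.333 to 0.663), in opposite directions. Neither was called, with log2 changes of -1.12 (SE 0.965) and 1.30 (SE 0.70). Without P10 SFM the Ntrk2 change was 0.42, and without P10 SCM the Ntrk3 change was -1.22. Gria3 differed least, with ratios of 0.824 (0.717 to 0.948) and 0.99 (0.799 to 1.22) and a log2 change of -0.01 (SE 0.36).

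Per doubling of the passage number edgeR called none of the 6 tested genes, against 0.0482% of 12451 genes called higher and 0.442% called lower. An unadjusted p under 0.05 was found for 4 of the 6 and for 13.2% of all genes, and DESeq2 called 1 of the 6, Ngfr, and 4.3% of 17402 genes. The log2 change per doubling was 1.28 for Ntrk2 (SE 0.48, edgeR adjusted p = 0.317), 0.72 for Ngfr (SE 0.16, adjusted p = 0.123) and 0.51 for Adrb1 (SE 0.15, adjusted p = 0.227). For Chrm3 it was -0.88 (SE 0.355, adjusted p = 0.352), and for Ntrk3 and Gria3 it was 0.21 (SE 0.30) and -0.12 (SE 0.14).

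These changes rest on few libraries. Ntrk2 was 30.2 times as high in P10 SFM as in P2 SFM (95% counting interval 26.0 to 35.3) and 11.3 times as high in P25 SFM (9.68 to 13.2), so the level did not follow the order of passage. Chrm3 in SFM was at a ratio of 0.754 at P10 to P2 (0.539 to 1.05) and of 0.0427 at P25 to P2 (0.0153 to 0.0963), while that of P10 to P4 was 1.72 (1.2 to 2.47), so its level did not follow the order of passage either. Without P10 SFM, Ntrk2 (0.94, edgeR adjusted p = 0.0178), Ngfr (0.68, 0.0491) and Chrm3 (-1.25, 0.0252) passed the threshold, as did 2.64% of 12455 genes in place of 0.49% of 12451. Over all alternatives the adjusted p ranged from 0.0178 to 1.0 for Ntrk2, from 0.0252 to 1.0 for Chrm3 and from 0.00518 to 0.758 for Ngfr. Without P4 SFM the adjusted p of Ngfr, 0.262, was the lowest of the 6 genes, with a log2 change of 0.67 per doubling. None of the 87 list genes was called by edgeR, 16 had an unadjusted p under 0.05, and DESeq2 called 9, with a median log2 change of -0.01 over that list and 0.00 over all genes tested.

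The genes whose levels ran most like each receptor gene were found by Pearson correlation of log2(TPM + 1) over the 6 mSGc libraries, among 10590 genes. Bdnf and Chrm1 had too few counts for this. Closest to Ntrk2 were Echs1 (0.995), Trib2 (0.985) and Ssbp2 (0.984). Closest to Ntrk3 were Lipe (0.974), Nlrp10 (0.972) and Dab2 (0.966). Ngfr was most like Nrp2 (0.995), Neil3 (0.994) and Tars2 (0.988). No gene was shared between these 3 lists, but lists of 3 genes from 10590 are too short to read anything from this. Adrb1 was most like Prrx2 (0.988), Dnajc19 (0.985) and Slc25a35 (0.975). For Chrm3 they were Lgr4 (0.997), Irak4 (0.997) and Aak1 (0.994), and for Gria3 Trp53inp1 (0.997), Ndst1 (0.996) and Polb (0.994). These values are a description of 6 libraries of 1 line with different depths, each the highest of many, and carry no test.

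In the coordinates of mm9, the build of the count tables, Ntrk2 spans 58907957 to 59231328 on the plus strand and Chrm3 9875859 to 10360049 on the minus strand, both of chromosome 13. Ngfr spans 95430140 to 95449012 on the minus strand of chromosome 11, Ntrk3 85337000 to 85722724 on the minus strand of chromosome 7, and Gria3 38754481 to 39031778 on the plus strand of chromosome X. Adrb1, on chromosome 19, is a gene of 1 exon, from 56796862 to 56799352 on the plus strand. Bdnf lies on chromosome 2 from 109514857 to 109567200 and Chrm1 on chromosome 19 from 8738495 to 8758092, both on the plus strand.

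RefSeq promoters of the GRCm38.p6 build were at hand for 5 of the 8 genes, Ntrk2, Ngfr, Bdnf, Adrb1 and Chrm3. The 250 bases before the start of Ngfr (chr11:95587699-95587948, minus strand) and Chrm3 (chr13:10360804-10361053, minus strand) are shown because these were the 2 genes with an unadjusted p under 0.05 for medium. Capitals mark GC boxes, GGGCGG or CCGCCC on the other strand.
Ngfr: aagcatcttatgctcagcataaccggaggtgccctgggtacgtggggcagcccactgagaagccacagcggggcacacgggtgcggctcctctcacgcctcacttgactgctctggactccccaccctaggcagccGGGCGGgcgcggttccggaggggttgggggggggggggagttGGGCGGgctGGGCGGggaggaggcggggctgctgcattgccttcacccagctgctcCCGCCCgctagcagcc
Chrm3: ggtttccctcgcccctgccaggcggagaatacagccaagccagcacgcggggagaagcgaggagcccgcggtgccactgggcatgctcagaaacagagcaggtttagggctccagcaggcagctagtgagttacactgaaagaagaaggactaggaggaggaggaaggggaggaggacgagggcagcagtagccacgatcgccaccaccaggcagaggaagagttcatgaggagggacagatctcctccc
The Ngfr window held 4 GC boxes and the Chrm3 window 0, and 32.7% of 32851 promoter windows held at least 1. Neither window held the half-site of retinoid and thyroid receptors (AGGTCA, in 4607 windows), the AP-1 motif (TGANTCA, in 6.75%) or the cAMP response element (TGACGTCA, in 1.55%), each searched on both strands and none contained in another. The GC content was 70.4% for Ngfr and 61.2% for Chrm3 against a median of 52.4% over all windows. The Adrb1 window held 1 GC box and the Ntrk2 window 0, and Bdnf has 7 of the 11 promoter entries. A match describes these letters in this window and nothing about a factor.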

How the data were processed

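RNA-seq libraries of mSGc and IMOK were used as raw counts of reads per gene, which the authors deposited in 2 tables with gene lengths in bases. Per the submitters' processing notes they were made with TopHat2 2.1.1, Bowtie2 2.2.6 and featureCounts 1.5.1 on mm9. Strandedness and annotation are not given in the sources used here, so overlapping genes are uncertain. Counts divided by gene length were scaled to TPM. Counts were tested with edgeR 4.0.16 in R 4.3.3 (quasi-likelihood, TMM, filterByExpr, Benjamini-Hochberg at 0.05 over all genes tested). SE is the absolute log2 change over the root of the F statistic. Alternatives were DESeq2 1.42.0, no TMM, no filter, P10 mSGc libraries only, P10 and P25 blocked by passage, untransformed passage, SFM only for passage, another pseudocount, and each library left out. Intervals used scipy 1.17.1, tables pandas 2.3.3, and figures matplotlib 3.10.9, under Python 3.11.15. The fits were tested on simulated data. The genes and lists were chosen with earlier results of these data known. Named list genes are from the up to 3 per list and direction with the largest fold change among those called between the lines at 1 TPM or more in at least 2 libraries, plus genes of the receptor families. Correlated genes needed 10 counts in 4 of the 6 mSGc libraries and 5 TPM in at least 1, and the 3 highest are named.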

Additional observations from a re-analysis of the deposited data

Results flagged for a closer look

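Each of the 8 genes was examined in the 4 SFM libraries and in all 6 mSGc libraries for a value far from the others, 16 groups in all. Chance would mark about 1 group in 20 if the values were normally spread, which was not tested here. There were 3 such values in 4 of the 16 groups, as the value of Bdnf stood apart in both of its groups, which share the 4 SFM libraries. Ntrk2 at 97.3 TPM in P10 SFM was separated from the next library by 0.673 of the range over the 6 libraries, and Ntrk3 at 18.7 TPM in P10 SCM by 0.831. Bdnf at 0.620 TPM (18 counts) in P2 SFM was separated by 0.935 of the range over the 4 SFM libraries and by 0.675 over the 6. The 3 IMOK libraries were too few to be examined in this way.

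Ntrk2 moved in opposite directions between P10 and P25 in the media, with a CPM ratio of P25 to P10 of 0.373 in SFM and 1.30 in SCM, so that the first ratio was 0.287 of the second. For Ntrk3 these ratios were 1.13 in SFM, where the counting interval of 0.893 to 1.43 includes equality, and 0.145 in SCM, a quotient of 7.75. The same quotient separates the Ntrk3 ratios of SCM to SFM at P10 (3.68) and P25 (0.475). With 1 library in each condition, these differences were not tested.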

How the results depend on the processing

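The count of nerve-input genes called between the lines, 17, was 28 by DESeq2 and between 6 and 19 with 1 library left out. It was 5 with P10 mSGc libraries only, the passage that the paper compared with IMOK. Leaving out P4 SFM and IMOK replicates 2 and 3, a choice made after seeing the data, keeps 1 IMOK library. The count for that fit is not given. With P10 mSGc libraries only, 4.2% of all 13018 genes tested were called, in place of 14.9% of 12885. For medium, members called went from 0 to 1 by DESeq2, 1 with P10 and P25 blocked by passage and between 0 and 2 with 1 library left out. List genes called for medium went from 0 to 4 by DESeq2, 1 without the filter, 2 in the blocked fit and between 0 and 1 with 1 library left out. For passage, members called went from 0 to 1 by DESeq2 and between 0 and 3 with 1 library left out, and list genes from 0 to 9 by DESeq2, 2 without the filter, 2 with untransformed passage and between 0 and 3 with 1 library left out. The count of members below IMOK went from 0 to 1 without IMOK replicate 3 (range 0 to 1 with 1 library left out) and to 1 without the 3 libraries named above. The cause was not tested.

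The log2 change with medium turned with 1 library left out for Ntrk2 (-2.19 to 0.42), Ntrk3 (-1.22 to 2.01) and Gria3 (-0.40 to 0.29), and for Gria3 was 0.038 without TMM factors. Per doubling of passage it turned for Ntrk3 (-0.035 to 0.42) and Gria3 (-0.20 to 0.038). Of the other alternatives for single genes, 51 of medium and 59 of passage kept direction and side of the threshold, and 4 of each passed the threshold. Of the untested log2 differences between the lines, 93 moved by less than the spread between libraries and 11 by more. The pooled count ratios of Ntrk3 and Chrm3 without other libraries, chosen after seeing the data, stayed within their counting intervals in 19 of 19 cases. These intervals cover counting error only, and that of Ntrk3 rests on 1 IMOK count, so staying within them says little about stability. With 1 library left out the ratio ranged from 503 to 1020 for Ntrk3 and from 60.2 to 130 for Chrm3. Ntrk3 has no ratio without IMOK replicate 1, as no IMOK count is left. Leaving out TMM factors moved the median log2 fold change of all genes between the lines by -0.11. When an SCM library was left out, the other was assumed to vary like the SFM libraries.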
